A study of Mus musculus with 2 samples.

Results

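Usp39 binding peaks named for Gm5420, Peli1 and 6820431F20Rik lay largely outside the gene whose name they carry. These 3 genes were chosen from earlier results of the same peak list, for their high number of peaks and for how many of those peaks fell in the location class Distal Intergenic, so both counts are given here as a description. Every peak with 1 of the 3 names was taken, 524 peaks or 1.46% of a list that holds 17990 peaks in each of 2 passes: 200 for Gm5420, 147 for Peli1 and 177 for 6820431F20Rik. Of these, 351 were distal intergenic, out of 3142 such peaks in the whole list.

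The peaks came from RNA immunoprecipitation sequencing (RIP-seq), in which RNA cross-linked to a protein is pulled down and sequenced. AML12 cells, a mouse hepatocyte line labelled as normal, were grown with dexamethasone, a glucocorticoid, and a FLAG-tagged Usp39 was expressed from a vector with doxycycline for 72 h. The vector was transfected per the labels, while the methods describe a line made by viral infection. There was 1 Input library (no antibody) and 1 IP library (anti-FLAG beads), both labelled with the same induction and the same isolation of nuclei. Fixation with paraformaldehyde for 5 min was of cells per the labels and of isolated nuclei per the methods. The study's reporting summary mentions repeated RIP-seq experiments, but the samples analysed here are 1 library per group, so that no spread between replicates can be given, and no library of uninduced cells was analysed here. The list names no library, so that no value can be given per library and depth is unknown.

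Usp39 belongs to the tri-snRNP, a complex of small nuclear RNAs and proteins that joins the spliceosome before introns are cut out of newly made transcripts. A peak in an RIP-seq list is a stretch of genome where RNA fragments were dense, whether or not a gene is annotated there. The list names each peak for a gene, with the distance to a transcript start, and gives no strand. A peak far from any gene therefore still carries the name of a gene. The name was not always that of the nearest annotated start, since peaks on Gm29323 and Gm21811, described below, carried other names.

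Peli1 encodes Pellino 1, a ubiquitin ligase of Toll-like and interleukin-1 receptor signalling. Gm5420 is annotated as a long intergenic noncoding RNA gene. 6820431F20Rik is described in the list as a pseudogene of Cdh11, which encodes a cadherin, a cell adhesion protein, and it belongs to the unprocessed kind, a copy that arose by duplication of DNA and kept its exon and intron structure.

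The following sequences of the mm10 (GRCm38) plus strand are those of the strongest peak, by the peak caller's p-value, in the main intergenic cluster of each gene, shown because the clusters have no gene of their own by which to name them. They are chr10:21763401-21763500 (cluster named for Gm5420, peak p-value 1.73e-14), chr11:20962801-20963000 (named for Peli1, peak p-value 5.48e-09) and chr8:20130401-20130500 (named for 6820431F20Rik, peak p-value 7.16e-10).
Gm5420 cluster: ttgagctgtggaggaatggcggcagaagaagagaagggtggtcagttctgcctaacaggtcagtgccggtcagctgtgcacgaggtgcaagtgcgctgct
Peli1 cluster: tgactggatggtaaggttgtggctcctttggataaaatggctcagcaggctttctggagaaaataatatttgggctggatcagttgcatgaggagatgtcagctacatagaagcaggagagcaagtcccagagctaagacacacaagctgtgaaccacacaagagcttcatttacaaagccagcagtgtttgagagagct
6820431F20Rik cluster: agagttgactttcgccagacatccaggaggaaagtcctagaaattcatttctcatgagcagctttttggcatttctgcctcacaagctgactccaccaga
The repeat-masked share differed between them, from no base of the Gm5420 site to 16.5% of the Peli1 site and 80.0% of the 6820431F20Rik site.

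The share of peaks that were distal intergenic fell in the order Gm5420, Peli1, 6820431F20Rik. It was 94.0% for Gm5420 (188 of 200, 95% Wilson interval 89.8 to 96.5%), 75.5% for Peli1 (111 of 147, 68.0 to 81.8%) and 29.4% for 6820431F20Rik (52 of 177, 23.2 to 36.5%). The share over the whole list was 8.73%, and all intervals cover counting error only. By number of distal intergenic peaks the genes ranked 1, 2 and 8 among all genes of the list.

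The gene bodies in the GENCODE annotation held none or the smaller part of these peaks. Gm5420 (ENSMUSG00000056716, chr10:21686411-21707440, plus strand) held none of its 200. Peli1 (ENSMUSG00000020134, chr11:21091291-21150323, plus strand) held 36 of its 147, and 6820431F20Rik (ENSMUSG00000071796, chr8:20262613-20297432, minus strand) held 69 of its 177. The peaks outside the body split between other annotated genes and no gene at all. For Gm5420, 12 peaks lay in another gene, for Peli1 0 did, and for 6820431F20Rik 56 did.

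**Figure D1:**
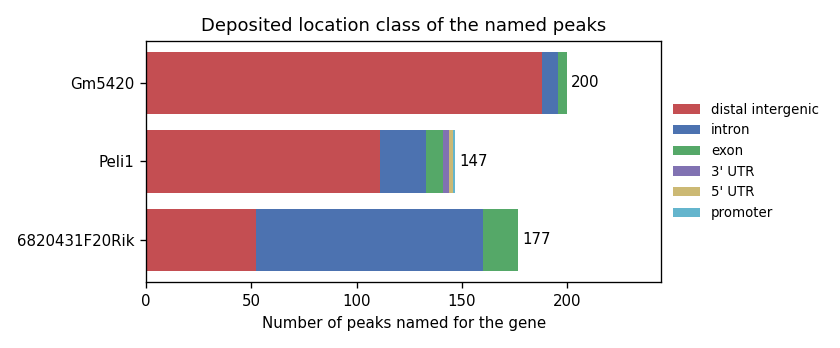
Number of peaks named for each of the 3 genes (horizontal axis), stacked by the deposited location class, with the total at the end of each bar. Distal intergenic peaks made up 188 of 200 for Gm5420, 111 of 147 for Peli1 and 52 of 177 for 6820431F20Rik, where introns made up 108.

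Peaks that touched or overlapped were joined into sites, since the list runs over the chromosomes in 2 passes of 17990 peaks each that name many stretches more than once. The sources used here do not say what the passes stand for. The 524 peaks joined into 73 sites for Gm5420, 61 for Peli1 and 102 for 6820431F20Rik, and they covered 40.5, 20.2 and 24.4 kb. Of these sites, 60, 45 and 63 held peaks of both passes. Peaks of the first pass were overlapped by a second-pass peak in 67.0% of cases for Gm5420, 56.0% for Peli1 and 46.4% for 6820431F20Rik, against 32.7% over the whole list. The 3 genes were chosen for many peaks, and the part of peak density and width in these shares was not tested. The nearest second-pass peak was shifted to higher positions, by a median of 50, 100 and 50 bases between centres. Over the whole list the median shift was 100 bases, with the second pass higher in 65.4% of cases and lower in 23.3%. The passes seldom gave the same interval, since only 6, 3 and 7 peaks of the first pass had the same start and end in the second.

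The peaks of the 3 genes were more often wider than the smallest unit of the list. A peak of a single bin of 100 bases made up 47.0% of the peaks for Gm5420, 55.1% for Peli1 and 55.9% for 6820431F20Rik, against 78.5% of all peaks and 71.1% of all distal intergenic peaks. The widest was 2600 bases for Gm5420, 1200 for Peli1 and 700 for 6820431F20Rik.

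In strength the peaks named for Peli1 were close to the rest of the list, and those of the other 2 genes had a higher median. The median −log10 of the peak p-value was 4.01 for Gm5420, 3.73 for Peli1 and 4.04 for 6820431F20Rik, against 3.68 for all peaks and 3.73 for all distal intergenic peaks. The 95% intervals of these medians, from the ranks of the values, were 3.84 to 4.04, 3.68 to 3.82 and 3.81 to 4.26. The share of peaks at a p-value up to 1e-05 was 16.5% for Gm5420 (95% Wilson interval 12 to 22.3%), 11.6% for Peli1 (7.35 to 17.7%) and 25.4% for 6820431F20Rik (19.6 to 32.3%). That share was 14.4% for all peaks and 21.4% for distal intergenic peaks, so that the intervals of Gm5420 and Peli1 held the share of all peaks and that of 6820431F20Rik did not. Against the distal intergenic peaks the intervals of Gm5420 and 6820431F20Rik held the share and that of Peli1 lay below it. Peaks of the 2 passes often shared a site and are not independent, so that these intervals are too narrow to serve as tests.

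**Figure D2:**
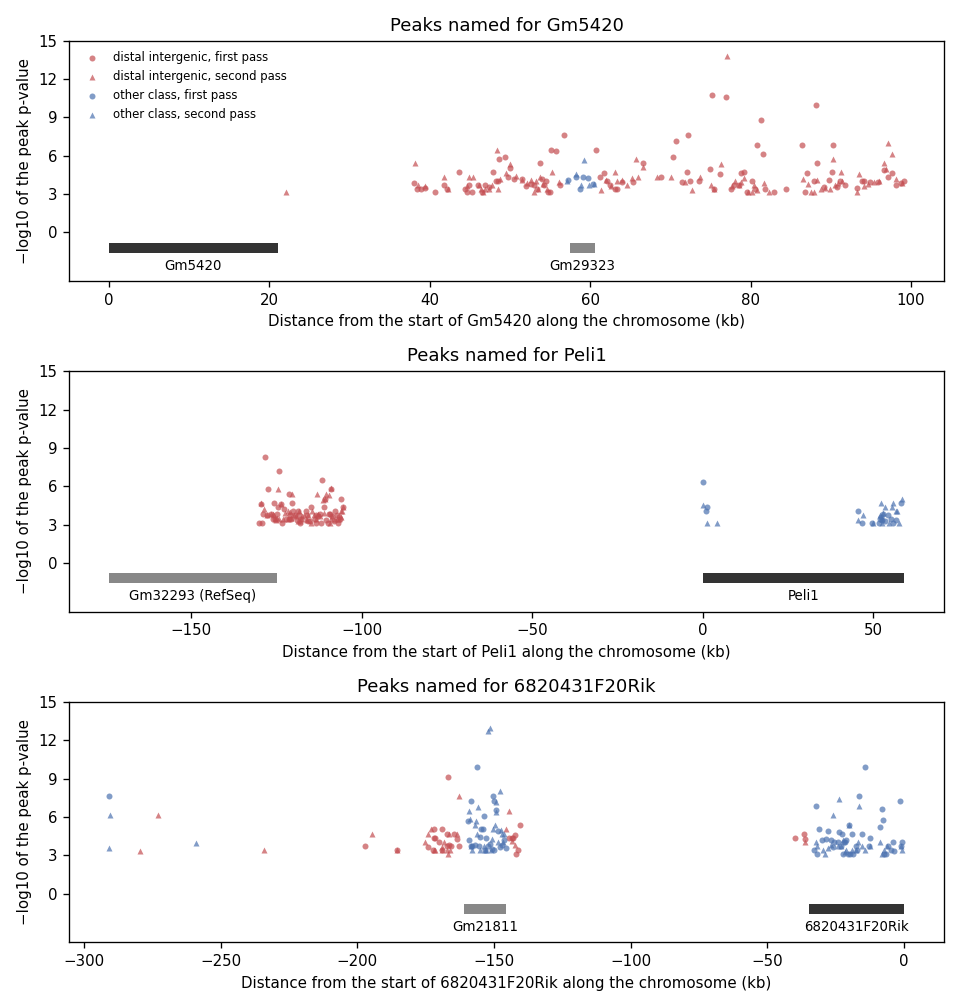
Peaks named for each gene, by distance from the start of the gene along the chromosome in kb (horizontal axis, increasing with chromosome position) and −log10 of the peak p-value (vertical axis). Points are peaks, red for distal intergenic and blue for other classes, circles for the first pass and triangles for the second, and bars below mark gene bodies. The Gm5420 peaks lie past the end of the gene, the Peli1 peaks form a group 105 to 130 kb before it and a second group within it, and the 6820431F20Rik peaks gather over the gene and around Gm21811.

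The peaks named for Gm5420 formed a single large cluster downstream of that gene. With peaks within 10 kb of each other taken as 1 cluster, 187 of the 188 distal intergenic peaks fell at chr10:21724301-21785700, a span of 61.4 kb, and the remaining peak (chr10:21708401-21708500, peak p-value 0.000736) lay 0.96 kb past the end of Gm5420. This was the cluster with the most peaks of all 643 clusters of distal intergenic peaks in the list. It began 16.9 kb past the end of Gm5420.

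Within the cluster, 70 sites covered 60.1% of the span, and the longest stretch without a distal intergenic peak, 3900 bases, was that over the gene Gm29323, whose peaks were classed as exon or intron. Both passes placed peaks along it, 100 and 87, and 56 of the 70 sites held both. Coverage was uneven. In windows of 5 kb it ran from 10% at the left edge to 86.0% in chr10:21735001-21740000 and 98.0% in chr10:21755001-21760000. The window with the strongest peak, chr10:21760001-21765000, was covered to 78.0%, so that the strongest peak and the densest cover were neighbours but not in the same window. The widest peak, chr10:21753901-21756500, had a p-value of 4.62e-05.

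Neither of the nearest genes held a peak in its body. On the left the nearest gene was Gm5420 itself, and on the right Platr6, a noncoding RNA gene on the minus strand 44.8 kb away, had no peak. The nearest protein-coding genes were 1700020N01Rik, 102 kb to the left and without a peak, and Sgk1, 96.5 kb to the right. Sgk1 encodes the serum- and glucocorticoid-regulated kinase. It had 25 named peaks, of which 22 lay in its body, and all 25 fell between 21992801 and 22000600, so that none lay in the left part of its body, which faces the cluster.

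A single annotated transcription unit lay inside the cluster. Gm29323, a long intergenic noncoding RNA gene of 2 exons at chr10:21743867-21747006 on the plus strand, was overlapped by 12 peaks named for Gm5420, in 4 sites, with a smallest p-value of 2.34e-06. No peak was named for Gm29323. Its 3.14 kb compare with 61.4 kb for the cluster. With these 12 peaks counted, the longest stretch without a peak fell to 1900 bases and the cover rose to 65.8%. The peaks over it continued past both ends of the gene, since the exon 1 peaks began at 21743101 and the exon 2 peaks ended at 21747300.

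Of the 12 peaks, 4 touched an exon of Gm29323 and 8 were classed as intronic. Because Usp39 acts in splicing, the splice sites of the only intron within the cluster are shown, 30 bases each of the mm10 plus strand, with the conserved intron ends in capitals (GT at the 5' splice site, AG at the 3' splice site). They are at chr10:21743974-21744003 and chr10:21746772-21746801, and a peak lay on each, with 2 peaks within 100 bases of either.
5' splice site: gccgtagttcGTaagtaattagctggctta
3' splice site: acgtactcttgtgattttAGgcacttcaga
In RefSeq no gene overlapped any of the 200 peaks. The strand of the RNA in the cluster cannot be read from the list.

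**Figure D3:**
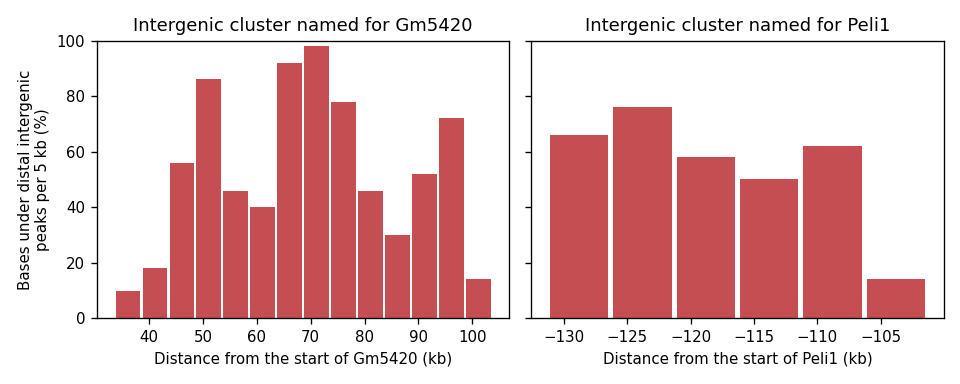
Percent of bases under distal intergenic peaks in windows of 5 kb (vertical axis) across the intergenic cluster named for Gm5420 (left) and for Peli1 (right), by distance from the start of the named gene in kb. Coverage reached 98.0% for Gm5420 and 76.0% for Peli1. The windows at the edges reach beyond the cluster.

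The peaks named for Peli1 split into 2 groups far apart. All 111 distal intergenic peaks lay at chr11:20961201-20986000, between 105.3 and 130.0 kb upstream of the deposited transcript start, with a median of 117.5 kb. The other 36 lay in the gene body. No Peli1 peak lay in the 105 kb between the cluster and the gene.

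The upstream cluster held more distal intergenic peaks per kb than that of Gm5420 (4.48 against 3.05). Its 44 sites covered 65.7% of 24.8 kb, close to the cover of the Gm5420 cluster by peaks of any class, and the longest gap was 600 bases. The passes gave 58 and 53 peaks, and 32 of the 44 sites held both. Coverage was between 50% and 76.0% in each window of 5 kb from 20960001 to 20985000, and the widest peak was 1200 bases (chr11:20964101-20965300, peak p-value 0.000142).

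The left edge of this cluster was a change of name within a continuous run of peaks. A further 26 distal intergenic peaks named for Lgalsl, which encodes a galectin-like protein, filled chr11:20956001-20961200 and touched the first Peli1 peak. The last Lgalsl peak ended at 20961200 and the first Peli1 peak began at 20961201. The point halfway between the starts of Lgalsl (20831056) and Peli1 (21091291) is 20961173, in the last bin before the change. Under both names together the stretch was chr11:20956001-20986000, 30.0 kb with 137 peaks, the second largest of the 643 clusters.

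Lgalsl itself held little. Of its 27 named peaks, 1 lay in its body, and its strongest, with a p-value of 9.76e-15, was in the intergenic stretch. The joined stretch was thus stronger at its left end than anywhere in the Peli1-named part, where the smallest p-value was 5.48e-09.

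No GENCODE gene overlapped the cluster. Its nearest neighbours were Gm12037, a long intergenic noncoding RNA gene 129 kb to the left, and Peli1, 105 kb to the right, with Lgalsl as the nearest protein-coding gene on the left at 130.0 kb. RefSeq predicts a long noncoding RNA, Gm32293, at chr11:20917297-20966399 on the plus strand. It overlapped 45 peaks of any name, 19 of them named for Peli1. The other 92 of the 111 had no RefSeq gene over them.

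The 36 peaks in the body of Peli1 were spread over introns, exons and UTRs. The list gave 22 as intronic, 8 as exonic, 3 in the 3' UTR, 2 in the 5' UTR and 1 in the promoter. The largest group, 15 peaks, lay in intron 4 of 6, between 21143201 and 21146700. The strongest of these 36 was in the 5' UTR, with a p-value of 4.5e-07, which is weaker than the strongest of the upstream cluster.

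Part of the signal in the Peli1 body carried another name. Of 63 peaks of any name in the body, 27 were named for 2610024D14Rik, a processed pseudogene of 0.294 kb in a Peli1 intron, that is, a copy derived from a spliced RNA. None of these 27 overlapped the pseudogene itself in GENCODE. They ran from 21096001 to 21116900. Their smallest p-value, 4.24e-09, was below that of the peaks named for Peli1 in the body (4.5e-07) and upstream (5.48e-09). Vps54, which encodes a subunit of a vesicle tethering complex, had 9 named peaks, all in its own body.

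The peaks named for 6820431F20Rik were spread over 290.3 kb of chromosome 8, and their intergenic part was in smaller groups. There were 6 clusters of distal intergenic peaks, of 30, 11, 4, 4, 2 and 1 peaks. The 2 with at least 5 peaks were chr8:20122201-20134600 (30 peaks in 12.4 kb, 25.8% covered) and chr8:20151701-20156900 (11 peaks in 5.2 kb, 28.8% covered). Their cover was sparser than for Gm5420 and Peli1. Their strongest peaks had p-values of 7.16e-10 and 3.26e-07.

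These 2 clusters flanked a further pseudogene, Gm21811 (unprocessed, plus strand, chr8:20136502-20151665). It was overlapped by 52 peaks in 24 sites, all named for 6820431F20Rik and none for Gm21811. The strongest peak of all 177, with a p-value of 1.05e-13, was in intron 3 of Gm21811. By this count Gm21811 and its flanks held more of the named peaks (93) than the body of 6820431F20Rik (69).

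The nearest annotated protein-coding gene on the left was Gm31371, 196 kb from the cluster of 30 peaks and 226 kb from that of 11. On the right the nearest long noncoding RNA gene was Gm26804, at 158 and 136 kb, with the protein-coding Gm15319 beyond it at 203 and 181 kb. Gm26804 overlaps the start of 6820431F20Rik on the opposite strand, so that the 8 named peaks in both cannot be told apart without strand. Smaller numbers of named peaks lay in the pseudogenes Gm40466 (3) and Gm20778 (1). RefSeq predicts a long noncoding RNA, Gm40468, at chr8:20257557-20261199, which overlapped 3 of the 4 peaks of the intergenic cluster next to 6820431F20Rik.

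The left end of the named range was again a halfway point. The start of 4930467E23Rik (19729576) and that of the 6820431F20Rik transcript given for 166 of the 177 peaks (20283266, inside the gene body) have their midpoint at 20006421. The last peak named for 4930467E23Rik ended at 20006300 and the first named for 6820431F20Rik began at 20006501. Both fell within the single pseudogene Gm40466, which held 7 peaks under these 2 names.

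The sites named for 6820431F20Rik shared a property that the choice of genes did not use. All 102 had a copy elsewhere in the genome at 95% identity or more over 90% of their length (100%, exact 95% interval 96.4 to 100%), and 76 had an identical copy. The same held for 13 of the 73 sites named for Gm5420 (17.8%, 9.84 to 28.5%) and for 3 of the 61 named for Peli1 (4.92%, 1.03 to 13.7%).

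Among distal intergenic sites alone the numbers were 13 of 71 for Gm5420 (18.3%, 10.1 to 29.3%), 1 of 44 for Peli1 (2.27%, 0.0575 to 12%) and 35 of 35 for 6820431F20Rik. Distal intergenic sites of all other names had a copy in 71.3% of cases (1301 of 1825, 69.2 to 73.4%). The intervals of Gm5420 and Peli1 lay below that share and that of 6820431F20Rik (90 to 100%) above it. Neighbouring sites share a stretch of sequence and are not independent of each other.

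**Figure D4:**
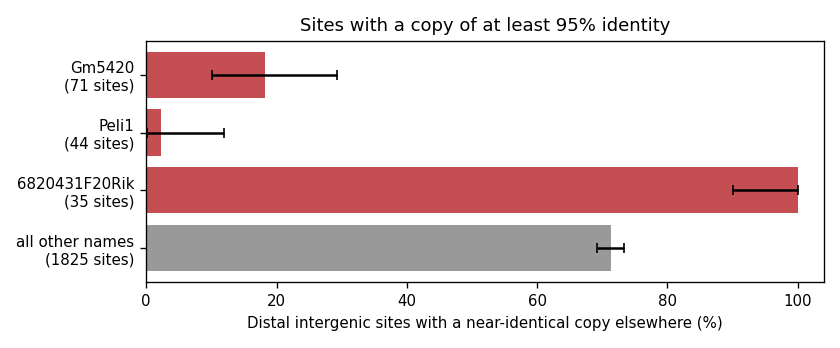
Percent of distal intergenic sites with a copy elsewhere in the genome at 95% identity or more over 90% of the length (horizontal axis), for the 3 genes and for all other names, with exact 95% intervals as error bars. The share was 18.3% for Gm5420, 2.27% for Peli1, 100% for 6820431F20Rik and 71.3% for all other names.

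Copies of the 6820431F20Rik sites are described on the same chromosome only, and stretches with few copied sites are left out. A copy counted as holding a peak where a peak of any name overlapped any part of it, not necessarily the matching bases. A site counted where any of its copies in the stretch did. All 102 sites had a copy in chr8:20506054-20618399, the stretch with Gm21119, and a peak lay on 74 of these. In chr8:20359730-20434971, the stretch with 2610005L07Rik, 97 had a copy and 65 of these held a peak. A peak lay on 29 of 43 copied sites in the stretch with Gm21811 (chr8:20123001-20155999). In that with 6820431F20Rik itself (chr8:20263347-20297611) it lay on 31 of 50. The remaining stretches described had a peak on a smaller share of their copies. In the stretch with 4930467E23Rik (chr8:19678523-19733048) a peak lay on 27 of 68 copied sites, and in that with Gm26853 (chr8:19753658-19802465) on 16 of 37. In chr8:19961436-20016176, which reaches into the range of the named peaks, it lay on 4 of 28. The lower shares were thus found both near and far, since in chr8:69519495-69588204 76 sites had a copy and 2 of these held a peak.

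Copies in Cdh11, the gene after which the pseudogene is described, held no peak. Within the Cdh11 body 23 sites had a copy, at chr8:102665695-102689517. Cdh11 had 3 named peaks, which lay outside its annotated body.

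The body of 6820431F20Rik and the stretch around Gm21811 were near copies of each other in opposite orientation. All 41 sites in the body had an inverted copy at Gm21811 or its flanking clusters, with a median identity of 100%, and 27 of these copies held a peak. In the other direction 47 of 49 sites had an inverted copy in the body, with a median identity of 99.5%, and 30 held a peak. The peaks on the flanks of Gm21811 and those in the gene body thus largely lay on matching sequence. A read that lies wholly within identical copies cannot be placed by its sequence, the sources used here do not say how reads with several placements were handled, and the part of this in the peak numbers was not tested.

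The strongest peak of each flanking cluster was set beside its copies base by base. The site at chr8:20130401-20130500, printed above, had identical copies on the minus strand in 6820431F20Rik (chr8:20289293-20289392) and in 2610005L07Rik (chr8:20416580-20416679), and on the plus strand in the stretch with Gm21119 (chr8:20561538-20561637). All 3 copies held a peak, with p-values of 2.32e-07, 6.32e-05 and 1.75e-09. A copy in the noncoding RNA gene Gm26853 (chr8:19792764-19792863) differed at 1 base and held none.

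The site at chr8:20153001-20153100 had identical copies in 6820431F20Rik (chr8:20267212-20267311) and 2610005L07Rik (chr8:20394495-20394594), neither with a peak, and in the stretches with Gm21119 (chr8:20583548-20583647, peak p-value 4.78e-11) and 4930467E23Rik (chr8:19698426-19698525, peak p-value 1.99e-05), each with a peak. Identical sequence therefore carried a peak at some places and not at others. The site and its least similar copy shown, at chr8:69554079-69554178 (minus strand, 96.0% identity, printed in the orientation of the site), follow, with differing bases of the copy in capitals. The copy of the first site that differs at 1 base is added.
Site 20153001: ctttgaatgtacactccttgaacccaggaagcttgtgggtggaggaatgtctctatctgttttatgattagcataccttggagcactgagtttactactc
Copy 69554079: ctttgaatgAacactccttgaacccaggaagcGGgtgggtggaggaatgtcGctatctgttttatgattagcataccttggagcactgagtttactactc
Copy 19792764: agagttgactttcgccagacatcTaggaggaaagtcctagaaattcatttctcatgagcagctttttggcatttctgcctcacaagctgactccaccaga
The copy at 69554079 differed at 4 bases and held no peak.

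**Figure D5:**
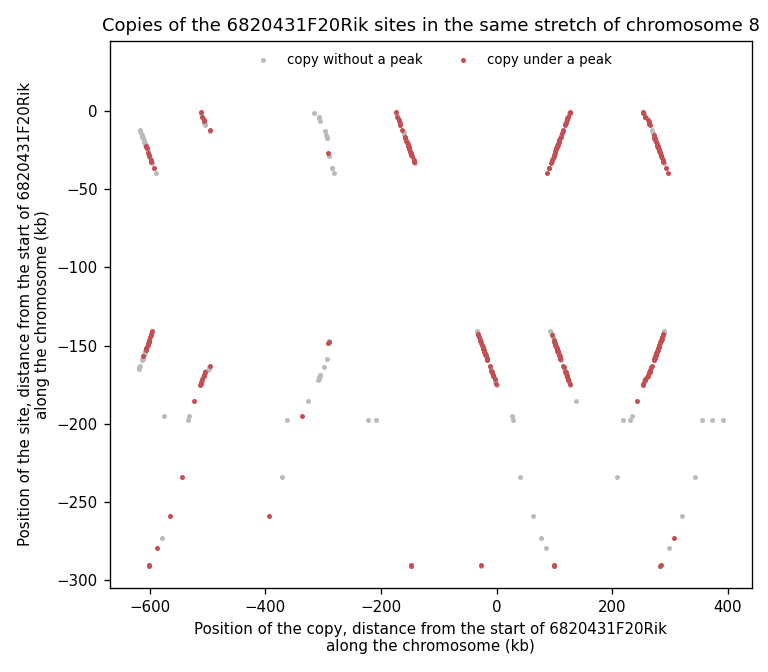
Each point is a site named for 6820431F20Rik (vertical axis, position along the chromosome in kb from the start of that gene) and the position of a copy of it in the surrounding stretch of chromosome 8 (horizontal axis, same scale), red where the copy lies under a peak and grey where it does not. Lines of points in opposite slopes are copies in the same and in the inverted orientation, as for the 41 sites of the gene body that were copied at Gm21811.

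In base composition the 3 genes differed little. The GC content over sites was 44.2% for Gm5420, 43.5% for Peli1 and 40.8% for 6820431F20Rik, all below the 49.2% of all sites in the list. The standard deviation between sites was 5.86, 6.1 and 6.91 percentage points, so that the differences among the 3 were smaller than the spread between sites. Repeat-masked bases made up 24.7%, 30.2% and 26.4%, between the 18.4% of all sites and the 45.5% of all distal intergenic sites. CG dinucleotides were rarer than over all sites (21.6 per kb), at 12.5, 7.72 and 7.38 per kb.

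The hexamers GGCCAC and GCCATA, which the study names as binding elements (the second as RNA), were searched on both strands. GGCCAC occurred at 0.593 per kb for Gm5420, 0.347 for Peli1 and 0.287 for 6820431F20Rik, against 0.78 over all sites. GCCATA occurred at 0.346, 0.594 and 0.451 per kb, against 0.342 over all sites. Per kb, GGCCAC was thus at a lower and GCCATA at a similar or higher rate than in the whole list. These rates rest on 24, 7 and 7 matches for the first and 14, 12 and 11 for the second. The share of sites with GGCCAC was 21.9% for Gm5420, 8.2% for Peli1 and 6.86% for 6820431F20Rik, against 11.8% of all sites. For GCCATA it was 19.2%, 14.8% and 10.8%, against 5.44%. Among sites of a single bin (19, 17 and 38), GGCCAC was in 5.26%, 0% and 2.63%, against 6.68% of all such sites. The single-bin shares for GCCATA were 5.26%, 0% and 5.26%, against 3.13%.

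The strongest narrow peak with such a word in 3 of the clusters is shown, with the match in capitals. Wide peaks were left out of this choice. The sites are chr10:21734701-21734800 (named for Gm5420, peak p-value 3.26e-07), chr11:20970901-20971000 (named for Peli1, peak p-value 1.99e-05) and chr8:20154201-20154300 (named for 6820431F20Rik, peak p-value 4.29e-05), all on the mm10 plus strand. In the first, GGCCAC on the minus strand and GCCATA on the plus strand overlap in 1 run of capitals. The 6820431F20Rik site is from the cluster of 11 peaks. In the main cluster of 30 peaks the strongest such peak was chr8:20122201-20122300 (peak p-value 9.08e-05), not printed here.
Gm5420 cluster: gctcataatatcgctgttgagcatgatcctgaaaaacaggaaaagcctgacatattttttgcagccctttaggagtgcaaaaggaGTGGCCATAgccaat
Peli1 cluster: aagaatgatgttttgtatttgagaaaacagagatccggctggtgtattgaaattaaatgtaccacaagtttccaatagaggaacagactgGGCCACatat
6820431F20Rik cluster: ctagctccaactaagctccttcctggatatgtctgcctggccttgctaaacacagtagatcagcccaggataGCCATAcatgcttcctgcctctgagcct
In all 3 genes the strongest peak of the main cluster, printed first, held neither word.

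Peli1, chosen for its number of peaks, had more named peaks than every other gene of the Pellino pathway list. Of 31 genes of Toll-like and interleukin-1 receptor signalling to NF-kB, 16 had a named peak, Peli1 included (51.6%, exact 95% interval 33.1 to 69.8%), beside 20% of 21911 protein-coding genes. By position, 15 of the 31 held a peak in the body (48.4%, 30.2 to 66.9%), beside 19%. Both intervals lay above the shares of all protein-coding genes. Both counts include Peli1, which was chosen for its peaks, so that the intervals are no test. The shares of the 31 genes describe the list, which was put together around a gene already known to have many peaks.

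After Peli1 the most peaks were named for Ube2v1 (9), a partner of the ubiquitin-conjugating enzyme Ube2n, for Tab1 (8), a subunit of the TAK1 kinase complex, and for Nfkbia and Ube2n (4 each). Nfkbia encodes the inhibitor that keeps NF-kB in the cytoplasm. None of these had a distal intergenic peak. The related ligase Peli2 had 1 named peak outside its body, and Ikbkb, a kinase that acts on the inhibitor, and Irak1, a receptor-associated kinase, had none.

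Among 24 cadherins and catenins, the proteins that link cadherins to the cytoskeleton, 9 had a named peak (37.5%, 18.8 to 59.4%) and 8 held a peak in the body (33.3%, 15.6 to 55.3%). Both intervals held the shares of all protein-coding genes, 20% and 19%. The catenin genes led, with 56 peaks for Ctnnd1, 18 for Ctnna1, 15 for Ctnnb1 and 12 for Jup. Distal intergenic peaks were 13 of the 56 for Ctnnd1. Of the cadherins proper, Cdh16 and Cdh2 had 7 each, and Cdh1, the epithelial cadherin, and Cdh10 had none.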

How the data were processed

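RIP-seq of FLAG-Usp39 in AML12 cells gave 1 Input and 1 IP library. Per the submitters' processing notes and the methods, the authors trimmed reads with Trim Galore (0.6.1), checked them with FastQC (0.11.9), removed ribosomal RNA with Bowtie (1.2.3), mapped the rest to mm10 with HISAT2 (version for this assay not given in the sources used here) and ran the peak caller Piranha on 100-base bins (p-value limit 0.001). Each p-value is the peak caller's own as deposited by the authors, with no stated adjustment. The number of peaks per gene is a count deposited by the authors. Positions, names and location classes were used as deposited. The sources used here do not say whether the Input library was used in peak calling, and depth is unknown.

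With 1 library per group and 1 pooled list, no test between groups was made. Members and lists were chosen with earlier results of these data known. Peaks were set against GENCODE (and, as an alternative added after seeing the data, RefSeq) on GRCm38. Touching peaks were joined into sites, and peaks within 10 kb into clusters. Copies were searched with blastn (2.17.0) at 95% identity or more over 90% of a site. Their number per site was not counted. Shares have 95% Wilson or exact intervals. Scripts ran in Python 3.11.15 with pandas 2.3.3, scipy 1.17.1 and pysam 0.24.0, and the interval steps were tested on simulated data. Named genes are the 3 members, each annotated gene their peaks or clusters overlapped, the nearest gene beside clusters of at least 5 peaks, the gene named for most other peaks within 50 kb, and from each list the 4 genes with most peaks and at most 2 with none. Sgk1, Gm15319, Vps54, 1700020N01Rik, 4930467E23Rik, 2610005L07Rik, Gm21119, Gm26853, Cdh16, Cdh2 and Peli2, and Cdh11 as a host of copies, were named after their values were seen. Alternatives were a p-value limit of 1e-05, single-bin peaks, each pass alone, joined sites, other cluster gaps, protein-coding genes only and other gene list rules.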

Additional observations from a re-analysis of the deposited data

How the results depend on the processing

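In total 61 alternative values were computed for 23 results, and 42 of them moved by less than the 95% interval or the spread between sites, or stayed within 1.5 times a count. The order of the distal intergenic share, Gm5420 above Peli1 above 6820431F20Rik, was kept under the 5 alternatives for it. With peaks at a p-value up to 1e-05 the share was 97.0%, 88.2% and 20% for Gm5420, Peli1 and 6820431F20Rik, and with single-bin peaks 97.9%, 66.7% and 40.4%. The 6820431F20Rik clusters of at least 5 peaks numbered 1 rather than 2 with a gap of 50 kb, with that p-value limit and in the second pass alone. Peaks in an annotated gene fell to 0 for Gm5420 and to 0 for 6820431F20Rik with protein-coding genes only. With RefSeq, chosen after seeing the data, they were 0 for Gm5420 and 55 for Peli1. Counting all classes, 108 peaks of 6820431F20Rik lay outside its body. Distal intergenic sites of Peli1 with a copy were 0% among single-bin sites and 0% with identical copies only, an alternative added after seeing the data, under which 85.7% of the distal intergenic 6820431F20Rik sites had one. The GC content of distal intergenic single-bin sites of Peli1 was 37.9%. With at least 2 peaks required, 9 Pellino pathway genes had a peak. The causes of these shifts were not tested, except that the RefSeq, protein-coding and all-class counts change by construction. No paired analysis was possible because each group had 1 library and the list names none. Depth is unknown, so that no absence of a peak can be read as absence of RNA.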
